A study of Mus musculus with 6 samples.

Results

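The receptor chains described here are those through which T cells sense IL-6, IL-10, IL-12, IL-27, IL-23 and IL-17: *Il6ra*, *Il6st*, *Il10ra*, *Il10rb*, *Il12rb1*, *Il12rb2*, *Il27ra*, *Il23r* and *Il17ra*. These 9 genes, of 45777 in the deposited tables, were chosen by name. The rule uses no measured value, but it was written with earlier results of these data known. Their transcripts were compared between CD4+Lrig1+ and CD4+Lrig1- T cells, sorted by flow cytometry from the spleens of C57BL/6 female mice at 7 weeks of age. C57BL/6 is an inbred laboratory strain, and Lrig1 is a transmembrane protein of the leucine-rich repeat family. No treatment is named for either group. Both came from the same strain, sex, age and organ, and they differed by the surface stain for Lrig1. The labels do not say how many mice gave each sample, so the p-values rest on these libraries alone, whose spread may be technical. The data comprise 2 libraries of each group. A deposited table holds a first pair of libraries (1 CD4+Lrig1+ and 1 CD4+Lrig1-), called set 1, and another holds a second such pair, called set 2.

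Cytokine receptors of this family are built from a chain that binds the cytokine and a partner that completes the signalling complex. IL-6 binds the receptor chain encoded by *Il6ra* and then engages gp130, the product of *Il6st*, which is shared with the IL-27 receptor. The chain encoded by *Il12rb1* is shared by the receptors for IL-12 and IL-23, whereas the chain encoded by *Il12rb2* belongs to the IL-12 receptor and that encoded by *Il23r* to the IL-23 receptor. Most of these receptors signal through JAK kinases and STAT transcription factors. The receptor for IL-17 uses another route, through TRAF adaptors. In CD4+ T cells IL-12 is known for driving Th1 cells, IL-6 and IL-23 for promoting and maintaining Th17 cells, and IL-10 and IL-27 for restraining inflammation.

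Sequencing depth, as estimated counts summed over genes, lay between 44865070 and 59977951 per library. Levels are given as CPM, which are counts scaled to library size by the TMM method, and as TPM, which also divides by transcript length and is used to set genes beside each other. *Lrig1* was 2.94-fold higher in the CD4+Lrig1+ library of set 1 and 3.50-fold higher in that of set 2. *Foxp3*, the transcription factor of regulatory T cells, had 588.7 and 615.4 CPM in CD4+Lrig1+ T cells against 48.9 and 30.7 CPM in CD4+Lrig1- T cells. *Il2ra*, which encodes CD25, and *Ctla4*, an inhibitory receptor, followed the same pattern within each set. In edgeR's quasi-likelihood test with the table as a term, all 8 listed markers of regulatory T cells were higher, beside 14.6% of all genes tested. All 8 markers of naive T cells were lower, beside 12.8%. Without that term the test called none of these markers. *Cd3e* and *Cd4* were abundant in every library. Transcripts of other cell types were present and differed between sets. The summed level of 10 B cell markers was 76.2 and 94.7 CPM in the CD4+Lrig1- and CD4+Lrig1+ libraries of set 1 and 763 and 386 CPM in those of set 2. In the CD4+Lrig1+ libraries 8 of the 10 were lower in both sets and 3 were called lower, beside 12.8% of all genes tested. Without *Cd22* and *Cd79b*, which were higher in set 1, the sums were 53.1, 48.4, 563 and 255 CPM. For 12 myeloid markers these sums were 51.6, 42.9, 252.5 and 190.5 CPM, with 6 of the 12 lower in both sets and 2 higher. Of the 16123 genes tested, 6654 were lower in both sets and 5794 were higher in both. Among the myeloid markers 4 were called lower and 1 higher, beside 12.8% and 14.6% of all genes tested. For 7 NK and CD8 markers the sums were 48.1, 45.4, 165 and 110.5 CPM. Of these, 6 were lower in CD4+Lrig1+ T cells within each set, and their sums were 43.9, 21.3, 155.9 and 69.2 CPM, while *Eomes*, which T cells can also express, was higher. No marker of the 3 lists was at 0 in all libraries. In these bulk samples, fewer cells of a type cannot be told apart from less RNA per cell.

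The receptor genes spanned a wide range of levels and moved in different directions. The most abundant, *Il27ra*, had a mean of 251 TPM over the 4 libraries, and the least abundant, *Il23r*, had 0.152 TPM. Ordered by mean TPM, *Il27ra* was followed by *Il17ra* at 139 TPM, *Il6ra* at 127 TPM, *Il6st* at 100.2 TPM, *Il10rb* at 63.9 TPM, *Il10ra* at 44.5 TPM, *Il12rb1* at 18.6 TPM and *Il12rb2* at 1.78 TPM. From *Il27ra* to *Il12rb1* the TPM values of each gene overlapped those of its neighbour when the libraries of both sets were joined. Compared within each library, *Il27ra* exceeded *Il17ra*, *Il10rb* exceeded *Il10ra* and *Il10ra* exceeded *Il12rb1* in 4 of 4 libraries, whereas *Il17ra* exceeded *Il6ra* in 2, *Il6ra* exceeded *Il6st* in 3 and *Il6st* exceeded *Il10rb* in 3. The lowest TPM of *Il12rb1*, 6.09, was above the highest of *Il12rb2*, 4.42, and the lowest of *Il12rb2*, 0.305, was above the highest of *Il23r*, 0.273. By mean TPM among the genes with a nonzero mean TPM, *Il27ra* lay at percentile 98.0, *Il12rb2* at percentile 47.7 and *Il23r* at percentile 27.3.

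All 9 genes passed the filter on low counts. In the test with the table as a term, 3 were higher in CD4+Lrig1+ T cells (*Il10ra*, *Il10rb* and *Il12rb1*), 3 were lower (*Il6ra*, *Il12rb2* and *Il17ra*) and 3 did not pass an adjusted p of 0.05 (*Il6st*, *Il27ra* and *Il23r*). Of the 16123 genes tested, 14.6% were called higher and 12.8% lower by the same rule, 27.4% in either direction. The median log2 fold change was 0.01 over the 9 receptor genes and -0.04 over all genes tested. The fit with the table as a term leaves 1 residual degree of freedom. Its p-values rest on how far the difference between the groups varied from set to set, with a variance also informed by the other genes. The spread between libraries of a group across the sets is taken up by the table term. Without that term edgeR's quasi-likelihood test called none of the 9 and 0% of all genes, and 3 of the 9 (*Il10ra*, *Il12rb1* and *Il12rb2*) had an unadjusted p under 0.05. DESeq2's Wald test without the term called *Il12rb2* alone among the 9 (adjusted p = 0.000711), beside 1.63% of all genes called higher and 0.31% called lower, 1.94% together. An exact permutation test of 2 libraries against 2, two-sided, cannot give a p below 0.333 for any single gene.

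**Figure D1:**
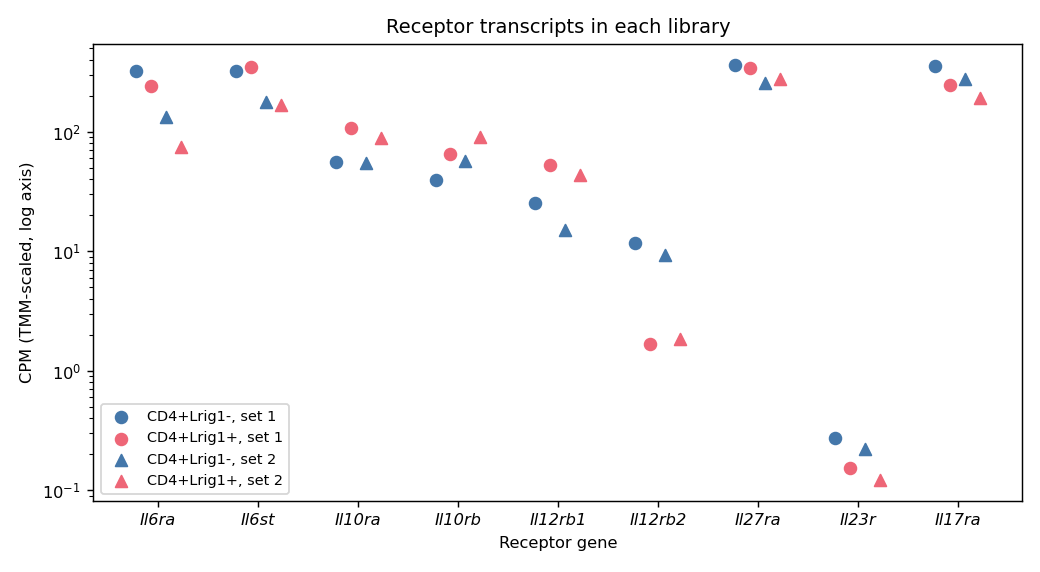
CPM of the 9 receptor genes on a log axis, 1 point per library, with colour for the group and shape for the set. The red points of *Il10ra*, *Il10rb* and *Il12rb1* lie above both blue points, those of *Il12rb2*, *Il23r* and *Il17ra* lie below them, and *Il6ra*, *Il6st* and *Il27ra* separate by set.

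For 3 of the 9 genes, the lower of the CD4+Lrig1+ values exceeded the higher of the CD4+Lrig1- values, beside 14.3% of all genes tested. The reverse held for 3 others, beside 11.8%, so that the groups were separate for 6 of 9, beside 26.1%. The direction was the same in both sets for 7 of the 9, beside 77.2% of all genes. The plot of CPM by library shows these positions.

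The 2 chains of the IL-12 receptor moved in opposite directions. *Il12rb2* (gene ID 16162, chromosome 6 of GRCm38 from 67285986 to 67376293), the chain that carries the IL-12 signal to STAT4, had 11.7 CPM in the CD4+Lrig1- library of set 1 and 9.30 CPM in that of set 2. Its level was 1.67 CPM in the CD4+Lrig1+ library of set 1 and 1.85 CPM in that of set 2. The groups did not overlap, and the libraries of a group lay close to each other across the sets. The CPM in CD4+Lrig1+ T cells was lower by 7.00-fold in set 1 and 5.04-fold in set 2. The estimated counts behind these levels were 561 and 502 in CD4+Lrig1- and 87 and 106 in CD4+Lrig1+ T cells. Fitted over both sets, this came to a log2 fold change of -2.57 ± 0.19 (SE), with an adjusted p of 0.000139 in edgeR's quasi-likelihood test with the table as a term and 0.55 without it. *Il12rb2* had the largest absolute change and the smallest p of the 9 genes in that fit. With limma on log2(FPKM + 1), a scale that compresses low levels, the log2 fold change was -1.03.

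*Il12rb1* (gene ID 16161, chromosome 8 from 70808360 to 70823542), the chain shared with the IL-23 receptor, went the other way. It had 25.2 and 14.98 CPM in the CD4+Lrig1- libraries of sets 1 and 2 and 52.3 and 43.1 CPM in the CD4+Lrig1+ libraries. Every CD4+Lrig1+ value was above every CD4+Lrig1- value, by 2.08-fold within set 1 and 2.88-fold within set 2. In the fit over all genes, the log2 fold change was 1.29 ± 0.12 (SE), with an adjusted p of 0.000394 in edgeR's quasi-likelihood test with the table as a term and 0.752 without it. The ratio of *Il12rb2* to *Il12rb1* in TPM was 0.291 and 0.321 in the CD4+Lrig1- libraries, and 0.0130 and 0.0170 in the CD4+Lrig1+ libraries. On the TPM scale *Il12rb1* thus exceeded *Il12rb2* by 3.44- and 3.11-fold in CD4+Lrig1- and by 77.1- and 58.7-fold in CD4+Lrig1+ T cells. These ratios depend on how counts were split among transcripts of unlike length. In CD4+Lrig1+ libraries all counts of *Il12rb2* went to a form of 9172 bases. In CD4+Lrig1- libraries a form of 2998 bases carried 30.4% and 40.3% of its TPM.

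The sequence just upstream of *Il12rb2* is shown because this gene differed most between the groups. It covers 145 bases of GRCm38.p6 on the minus strand, chr6:67376294-67376438, from the RefSeq promoter table, and ends just before the first base transcribed in any annotated transcript. The capitals mark the one match to the STAT-binding GAS motif, TTCNNNGAA (its own reverse complement), at chr6:67376303-67376311, with 9 bases between it and the first transcribed base.
Il12rb2: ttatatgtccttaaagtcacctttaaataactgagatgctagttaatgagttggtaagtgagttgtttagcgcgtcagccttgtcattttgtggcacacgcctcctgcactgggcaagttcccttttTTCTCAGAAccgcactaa
Promoters in that table run from 250 bases before a start site to 50 bases after it, and 8.30% of its 32851 promoters hold a GAS motif. The table holds 4 of the 9 genes (*Il6ra*, *Il6st*, *Il12rb2* and *Il23r*), and *Il12rb2* was the one with a GAS match. Neither the T-box half-site TCACACC, found in 3.98% of all promoters, nor the ETS core CCGGAA, found in 14.9%, was present in the *Il12rb2* window on either strand. *Il6st* held the ETS core at 2 positions. The 3 motifs share no overlapping match in these windows, and a match is a description of letters and not of a bound site.

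*Il12rb2* is tabulated as 3 transcripts, and the predicted form X1 carried most of the counts. X1 had 474 and 411 estimated counts in the CD4+Lrig1- libraries of sets 1 and 2 and 87 and 106 in the CD4+Lrig1+ libraries. Variant 1 had 76 and 91 counts in the CD4+Lrig1- libraries and was listed at 0 in both CD4+Lrig1+ libraries. Variant 2 had 11 counts in the CD4+Lrig1- library of set 1 and was listed at 0 in the other 3 libraries. The 3′ end of X1 shares 3317 bases with *Serbp1*, which encodes an RNA-binding protein, while variants 1 and 2 lie outside the shared bases. *Serbp1* had 373, 392, 641.5 and 635.5 CPM in the CD4+Lrig1- and CD4+Lrig1+ libraries of set 1 and those of set 2, a log2 fold change of 0.03 ± 0.09 (SE; adjusted p = 0.849 in edgeR's quasi-likelihood test). Use of strand in the counting is not given in the sources used here, so reads from the shared bases cannot be assigned. The split of counts among transcripts is an estimate, and a test of transcripts in place of genes called none of the 45339 tested.

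**Figure D2:**
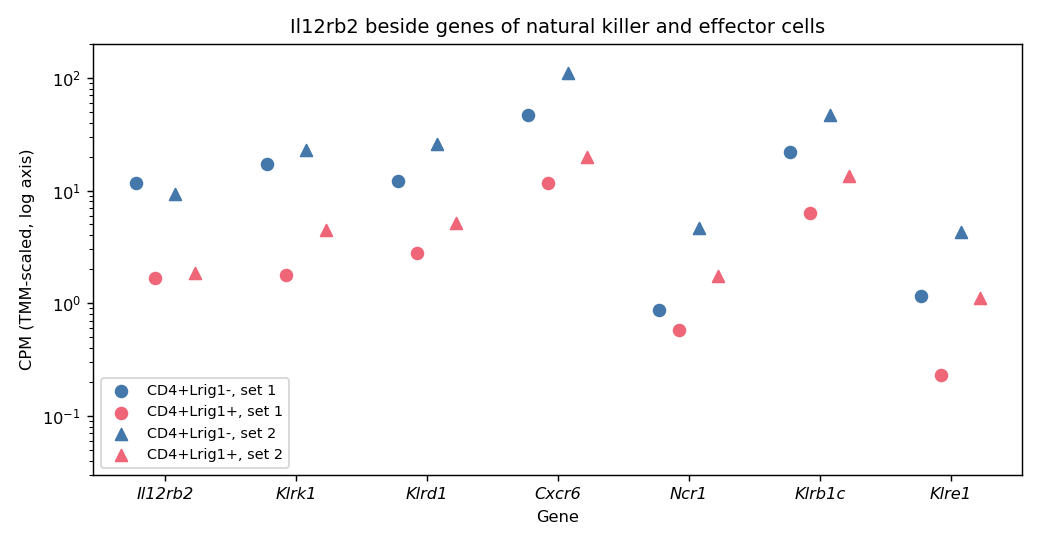
CPM on a log axis of *Il12rb2*, the 3 genes nearest to it in pattern (*Klrk1*, *Klrd1* and *Cxcr6*) and 3 markers of NK cells, 1 point per library. *Il12rb2* is at 11.7 and 9.30 CPM in the CD4+Lrig1- libraries, whereas the other 6 genes are higher in the CD4+Lrig1- library of set 2 than in that of set 1.

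The genes whose pattern lay nearest to *Il12rb2* were *Klrk1*, which encodes the receptor NKG2D, *Klrd1*, which encodes CD94, and *Cxcr6*, a chemokine receptor of effector T cells and NK cells. Nearness was the Euclidean distance over the 4 libraries of log2 CPM centred within each set, among 8831 genes with a mean of at least 10 CPM, and it was 0.33, 0.46 and 0.55. The mean of *Il12rb2* itself was below that minimum, so genes at its own level were not searched, and no gene searched lay within 0.1 of it. *Klrk1* had 17.2 and 23.0 CPM in CD4+Lrig1- and 1.79 and 4.42 CPM in CD4+Lrig1+ T cells. On the list of 7 NK and CD8 markers, 5 were lower in CD4+Lrig1+ T cells and 1, *Eomes*, was higher, beside 12.8% and 14.6% of all genes tested. *Ncr1*, a receptor that defines NK cells, had 0.877 and 4.65 CPM in the CD4+Lrig1- libraries of sets 1 and 2 and 0.577 and 1.76 CPM in the CD4+Lrig1+ libraries (adjusted p = 0.0522 in edgeR's quasi-likelihood test). Between the CD4+Lrig1- libraries, *Ncr1* was 5.30 times as high in set 2 as in set 1, *Klre1* 3.69 times and *Klrb1c* 2.13 times, whereas *Il12rb2* was 0.793 times as high. The part of NK cell transcripts in the level of *Il12rb2* was not tested.

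The third chain of this group, *Il23r* (gene ID 209590, chromosome 6 from 67422932 to 67491855), lies 46639 bases from *Il12rb2* and completes the IL-23 receptor. It was close to the limit of detection. Its estimated counts were 13 and 12 in the CD4+Lrig1- libraries of sets 1 and 2 and 8 and 7 in the CD4+Lrig1+ libraries. The ratio of CD4+Lrig1+ to CD4+Lrig1-, scaled to the TMM library sizes, was 0.567 in set 1 (95% exact interval 0.204 to 1.47) and 0.548 in set 2 (0.183 to 1.51), where the intervals cover counting error only. The fitted log2 fold change was -0.83 ± 0.78 (SE; adjusted p = 0.483 in edgeR's quasi-likelihood test), and a difference was not detectable at this depth. Transcripts of *Il12rb1* exceeded those of *Il23r* by 55.6- and 50.3-fold in CD4+Lrig1- and by 251- and 240.2-fold in CD4+Lrig1+ T cells, on the TPM scale.

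**Figure D3:**
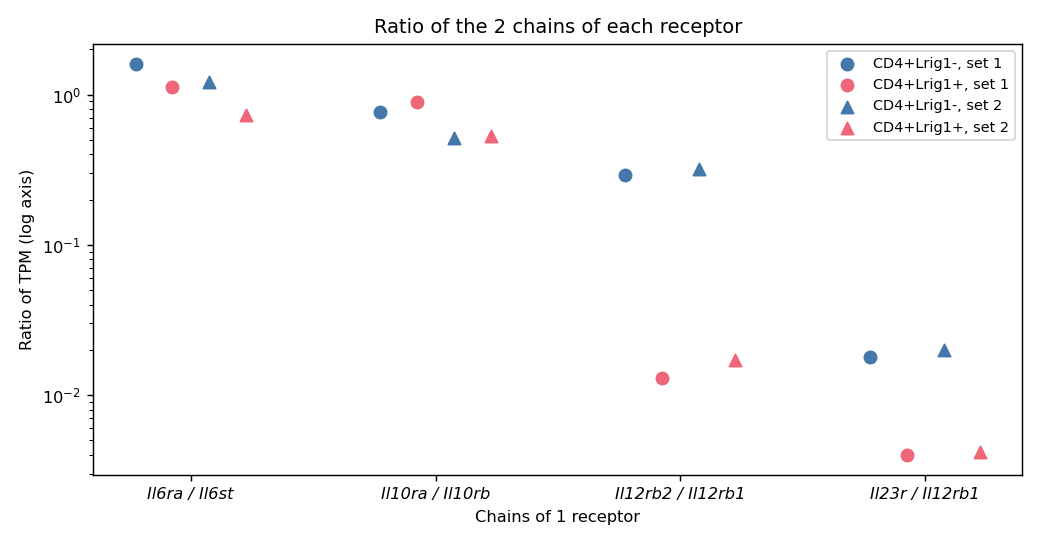
Ratio of TPM between the chains of 4 receptors on a log axis, 1 point per library. The *Il12rb2* to *Il12rb1* ratio is 0.291 and 0.321 in CD4+Lrig1- and 0.0130 and 0.0170 in CD4+Lrig1+ libraries, whereas the *Il10ra* to *Il10rb* ratio stays between 0.513 and 0.895.

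Both chains of the IL-10 receptor were higher in CD4+Lrig1+ T cells, and by similar amounts. *Il10ra* (gene ID 16154, chromosome 9 from 45253837 to 45269149), the chain that binds IL-10, had 55.5 and 54.8 CPM in the CD4+Lrig1- libraries and 106.7 and 89.0 CPM in the CD4+Lrig1+ libraries of sets 1 and 2. It had nearly the same level in both CD4+Lrig1- libraries and was higher by 1.92- and 1.62-fold in the CD4+Lrig1+ libraries. Over both sets the log2 fold change was 0.82 ± 0.08 (SE), with an adjusted p of 0.000496 in edgeR's quasi-likelihood test with the table as a term and 0.83 without it.

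*Il10rb* (gene ID 16155, chromosome 16 from 91406157 to 91425834), an accessory chain shared with the receptors for IL-22 and type III interferons, had 39.3 and 56.7 CPM in CD4+Lrig1- and 64.6 and 90.8 CPM in CD4+Lrig1+ T cells. It was higher by 1.64- and 1.60-fold, although set 2 was above set 1 in both groups. Its log2 fold change was 0.70 ± 0.07 (SE), with an adjusted p of 0.000557 in edgeR's quasi-likelihood test with the table as a term and 1.00 without it. The ratio of *Il10ra* to *Il10rb* in TPM was 0.765 and 0.895 in the CD4+Lrig1- and CD4+Lrig1+ libraries of set 1 and 0.513 and 0.527 in those of set 2. The balance of the chains thus differed more between the sets than between the groups, unlike that of the IL-12 receptor.

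*Il10ra* and *Il6ra* each have a pair of coding transcripts that differ by a few bases at the start of 1 exon, and the windows below show where. The bases in capitals are in variant 1 and absent from variant 2, with 12 bases on each side of the junction, from GENCODE M21 on the minus strand of GRCm38.
Il10ra variant 1: tcattgcatacgGGACAGaactgccaagcc
Il10ra variant 2: tcattgcatacgaactgccaagcc
Il6ra variant 1: ctccttggatagCAGagcccaggacca
Il6ra variant 2: ctccttggatagagcccaggacca
The 6 extra bases of *Il10ra*, at chr9:45267215-45267220, open exon 2 of 7 and are coding. The 3 extra bases of *Il6ra*, at chr3:89878893-89878895, open exon 7 of 10 and are coding. Variant 1 of *Il10ra* carried 76.8% and 82.4% of the gene's TPM in the CD4+Lrig1- libraries of sets 1 and 2, and 87.2% and 76.8% in the CD4+Lrig1+ libraries. In CD4+Lrig1+ T cells the share was the higher one in set 1 and the lower one in set 2. Variant 1 of *Il6ra* carried 53.2% and 50.6% in the CD4+Lrig1- and 43.5% and 48.3% in the CD4+Lrig1+ libraries. These shares rest on reads that cross a few bases and were not tested.

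Of the chains of the IL-6 receptor, the binding chain was lower in CD4+Lrig1+ T cells within each set and the signalling chain did not pass the test. *Il6ra* (gene ID 16194, chromosome 3 from 89869324 to 89913196) had 319.9 CPM in CD4+Lrig1- and 239.5 CPM in CD4+Lrig1+ T cells of set 1, and 131.8 and 74.4 CPM in those of set 2. Both libraries of set 1 were above both of set 2, so the groups overlapped when the sets were joined. Within the sets *Il6ra* was lower in CD4+Lrig1+ T cells, at log2 ratios of -0.42 and -0.83. In the fit over all genes, the log2 fold change was -0.62 ± 0.11 (SE) with an adjusted p of 0.00544 in edgeR's quasi-likelihood test with the table as a term, and -0.53 ± 0.79 (SE) with an adjusted p of 1.00 without it. Between the sets, the level in set 1 was 2.43 times that in set 2 for CD4+Lrig1- and 3.22 times for CD4+Lrig1+ T cells, which exceeds the difference between the groups. The call on *Il6ra* was lost with no filter on low counts (adjusted p = 0.0568 in edgeR's quasi-likelihood test with the table as a term). With no table term its log2 fold change turned to 0.28 when the set 1 library of CD4+Lrig1- was left out and to 0.08 when the set 2 library of CD4+Lrig1+ was.

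*Il6st* (gene ID 16195, chromosome 13 from 112464070 to 112506860) had 321.3 and 344.1 CPM in the CD4+Lrig1- and CD4+Lrig1+ libraries of set 1 and 175.8 and 165.4 CPM in those of set 2. It too was higher in set 1, by 1.83-fold in CD4+Lrig1- and 2.08-fold in CD4+Lrig1+ T cells. The log2 ratio was 0.10 in set 1 and -0.09 in set 2, and the log2 fold change was 0.01 ± 0.08 (SE; adjusted p = 0.972 in edgeR's quasi-likelihood test with the table as a term). The ratio of *Il6ra* to *Il6st* in TPM was 1.61 and 1.21 in CD4+Lrig1- and 1.12 and 0.726 in CD4+Lrig1+ T cells of sets 1 and 2. Within each set this ratio was lower in CD4+Lrig1+ T cells, although the value of CD4+Lrig1+ in set 1 and that of CD4+Lrig1- in set 2 were close.

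The 250 bases upstream of *Il6ra* on the minus strand, chr3:89913197-89913446, are shown for comparison with those of *Il12rb2*, since both genes were lower in CD4+Lrig1+ T cells. None of the 3 motifs was found there.
Il6ra: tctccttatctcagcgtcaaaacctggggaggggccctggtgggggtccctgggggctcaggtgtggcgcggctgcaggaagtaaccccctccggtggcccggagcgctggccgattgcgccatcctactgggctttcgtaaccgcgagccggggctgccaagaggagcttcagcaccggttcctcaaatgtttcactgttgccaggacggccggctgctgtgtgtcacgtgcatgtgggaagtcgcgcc
This sequence has 65.2% G and C and 18 CG pairs, whereas the 145 bases of *Il12rb2* have 42.8% G and C and 4 CG pairs. The genes nearest to *Il6ra* in pattern were *Ibtk*, *Mllt10* and *Ankrd50*, at distances of 0.0074 to 0.0091, and 98 of 8831 genes lay within 0.1. Levels were centred within each set, so this distance leaves out the difference of *Il6ra* between the sets. *Il6ra* overlaps the noncoding gene *Gm46811*, which had at most 1.17 CPM in any library.

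*Il27ra* (gene ID 50931, chromosome 8 from 84030286 to 84042600), which pairs with gp130 to sense IL-27, had 362.2 and 342.8 CPM in the CD4+Lrig1- and CD4+Lrig1+ libraries of set 1 and 256.4 and 275.3 CPM in those of set 2. The groups overlapped and the direction was not shared by the sets. The fitted log2 fold change was 0.01 ± 0.09 (SE; adjusted p = 0.945 in edgeR's quasi-likelihood test). *Il27ra* shares 386 bases with *Palm3*, which had at most 1.42 CPM in any library. On the TPM scale *Il27ra* was 1.53 and 2.48 times *Il6ra* in CD4+Lrig1- and 1.91 and 4.72 times *Il6ra* in CD4+Lrig1+ T cells of sets 1 and 2, so that among the chains that pair with gp130 the IL-27 chain was the more abundant in every library.

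*Il17ra* (gene ID 16172, chromosome 6 from 120463181 to 120483731), the common chain of the IL-17 receptors, had 356.5 and 275.5 CPM in the CD4+Lrig1- libraries and 245.1 and 191.3 CPM in the CD4+Lrig1+ libraries. The lowest CD4+Lrig1- value was above the highest CD4+Lrig1+ value. The log2 ratios within sets, -0.54 and -0.53, were nearly equal. Over both sets the log2 fold change was -0.53 ± 0.08 (SE), with an adjusted p of 0.00263 in edgeR's quasi-likelihood test with the table as a term and 1.00 without it.

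**Figure D4:**
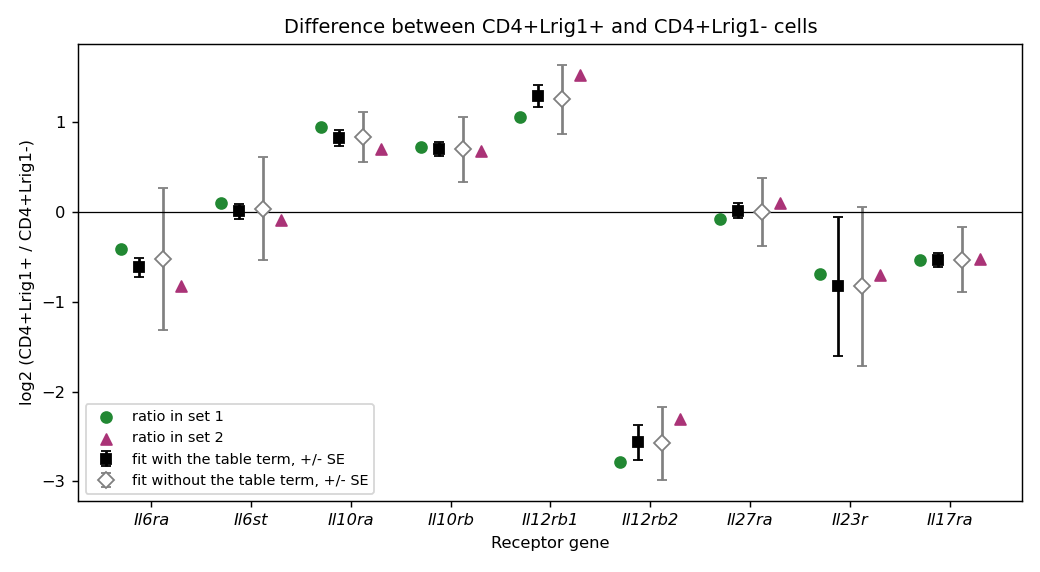
log2 ratio of CD4+Lrig1+ to CD4+Lrig1- for the 9 receptor genes, as the ratio in each set and as the fold change ± SE fitted with and without the table as a term. *Il12rb2* lies at -2.57 and *Il12rb1* at 1.29, and the error of *Il6ra* widens from 0.11 to 0.79 when the table is left out.

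Of 14 ligands on the list, 6 passed the filter on low counts, 2 were higher and 1 was lower in CD4+Lrig1+ T cells. By the same rule 14.6% of all genes tested were called higher and 12.8% lower. *Ebi3*, the subunit shared by IL-27 and IL-35, had 1.67 and 3.30 CPM in CD4+Lrig1- and 17.7 and 22.6 CPM in CD4+Lrig1+ T cells, at a log2 fold change of 3.06 ± 0.18 (SE; adjusted p = 4.12e-05 in edgeR's quasi-likelihood test with the table as a term). *Lif*, a cytokine that signals through gp130, rose by 3.58 ± 0.25 (SE) on the log2 scale. *Clcf1*, another gp130 cytokine, was the most abundant ligand of the list by mean level. It had 94.9 and 31.8 CPM in CD4+Lrig1- and 67.0 and 18.9 CPM in CD4+Lrig1+ T cells, lower within both sets. In the CD4+Lrig1+ library of set 2 it was below *Ebi3*, at 22.6 CPM, and *Osm*, at 21.3 CPM. *Il10* had 1.07 and 1.17 CPM in CD4+Lrig1- and 1.96 and 1.36 CPM in CD4+Lrig1+ T cells and did not pass the test (adjusted p = 0.30 in edgeR's quasi-likelihood test). *Il12a*, which pairs with the product of *Ebi3* in IL-35, had 0.230 and 0.611 CPM in CD4+Lrig1- and 0 and 0.279 CPM in CD4+Lrig1+ T cells and did not pass either. *Il6*, *Il12b*, *Il23a*, *Il27*, *Il17a*, *Il17f*, *Il22* and *Il11* did not pass the filter.

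Of 16 related receptor chains, 9 passed the filter, none was called higher and 2 were called lower, beside 14.6% and 12.8% of all genes tested. *Ifngr2*, the signalling chain of the interferon-γ receptor, had 65.3 and 63.9 CPM in CD4+Lrig1- and 38.3 and 33.4 CPM in CD4+Lrig1+ T cells, at a log2 fold change of -0.85 ± 0.08 (SE; adjusted p = 0.000435 in edgeR's quasi-likelihood test with the table as a term). *Lifr*, which pairs with gp130 to sense LIF, had 2.26 and 2.06 CPM in CD4+Lrig1- and 0.769 and 0.557 CPM in CD4+Lrig1+ T cells, lower in both sets while its ligand was higher.

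Of 13 JAK and STAT proteins and their inhibitors, 6 were higher and 2 lower, beside 14.6% and 12.8% of all genes tested. *Cish*, a feedback inhibitor of cytokine signalling, had 51.6 and 33.5 CPM in CD4+Lrig1- and 154.7 and 136.7 CPM in CD4+Lrig1+ T cells. *Socs1*, an inhibitor of JAK kinases, and *Ptpn11*, which encodes the phosphatase SHP-2, rose by 0.73 ± 0.10 and 0.78 ± 0.07 (SE) on the log2 scale. *Pias3*, an inhibitor of STAT3, rose by 0.62. *Stat4* and *Tyk2*, a transcription factor and a kinase of the IL-12 receptor, rose by 0.33 and 0.31, while *Jak1*, a kinase that binds gp130, changed by -0.36 and *Pias1* by -0.40. *Socs3*, the inhibitor that binds gp130, had a log2 fold change of -0.12 ± 0.07 (SE) and did not pass (adjusted p = 0.234 in edgeR's quasi-likelihood test).

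Of 10 IL-17 receptor adaptors and effectors, 3 were higher and none was lower, beside 14.6% and 12.8% of all genes tested. The 3 were *Nfkbiz*, *Zc3h12a* and *Traf2*, with log2 fold changes of 0.56, 0.43 and 0.31. *Nfkbiz*, a nuclear regulator of IL-17 target genes, had 93.1 and 134.4 CPM in set 1 and 13.1 and 19.9 CPM in set 2, with CD4+Lrig1- given first. The most abundant of the list, *Tab2*, had a log2 fold change of -0.03. Of 4 tested genes that shed receptors or move sheddases, 1 was lower and none was higher, beside 12.8% and 14.6% of all genes tested. This gene, *Rhbdf2*, a partner of ADAM17, changed by -0.69 ± 0.10 (SE) on the log2 scale. *Adam10*, the most abundant sheddase of the list, had a log2 fold change of 0.18 and did not pass.

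Genes known to respond to IL-12 were mostly lower in CD4+Lrig1+ T cells, with 7 of 9 lower and 2 higher and a median log2 fold change of -0.59. The same rule called 12.8% of all genes tested lower and 14.6% higher. *Ccl5*, a chemokine of effector cells, had 40.7 and 89.2 CPM in CD4+Lrig1- and 10.8 and 20.5 CPM in CD4+Lrig1+ T cells. *Tbx21*, which encodes the Th1 factor T-bet, had 21.4 and 27.1 CPM in CD4+Lrig1- and 14.0 and 18.4 CPM in CD4+Lrig1+ T cells, at a log2 fold change of -0.59 ± 0.10 (SE; adjusted p = 0.00423 in edgeR's quasi-likelihood test with the table as a term). *Il18rap*, a chain of the IL-18 receptor, had 26.7 and 31.5 CPM in CD4+Lrig1- and 14.4 and 14.7 CPM in CD4+Lrig1+ libraries. *Hlx*, a Th1 factor, changed by -1.84 on the log2 scale, and *Gzmb* and *Nkg7*, genes of cytotoxic granules, by -0.96 and -0.40. The 2 that rose were *Cxcr3*, a Th1 chemokine receptor, and *Ifng*, the Th1 cytokine, by 0.87 ± 0.07 and 0.85 ± 0.24 (SE), and *Ifng* differed between sets, at 0.31 in the first and 1.38 in the second on the log2 scale. Several of these genes, *Ccl5*, *Gzmb* and *Nkg7* among them, are also expressed by NK cells, whose markers are given above. The part of NK cell transcripts in the differences of this list was not tested.

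Genes known to respond to IL-6 or IL-23 were mostly higher, with 9 of 11 higher, none lower and a median log2 fold change of 1.39. Among all genes tested, 14.6% were called higher and 12.8% lower. *Il21*, a cytokine of Th17 and follicular T cells, had 1.21 and 3.06 CPM in CD4+Lrig1- and 9.88 and 20.9 CPM in CD4+Lrig1+ T cells. *Maf*, *Irf4* and *Batf*, which encode transcription factors, rose by 1.85, 1.97 and 1.39 on the log2 scale, and *Ccr6*, a chemokine receptor of Th17 and regulatory T cells, rose by 2.19. *Ahr*, which encodes the aryl hydrocarbon receptor, had 6.12 and 4.05 CPM in CD4+Lrig1- and 16.8 and 11.8 CPM in CD4+Lrig1+ libraries. Several of these, *Irf4*, *Batf*, *Maf* and *Ccr6* among them, are also known in regulatory T cells, whose markers moved the same way.

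Of 7 genes known to respond to IL-10 or IL-27, 4 were higher and 1 was lower, beside 14.6% and 12.8% of all genes tested. The median log2 fold change of the 7 was 0.63. *Lag3*, *Tigit* and *Cd274*, which encode 2 inhibitory receptors and the ligand PD-L1, rose by 2.94, 2.91 and 0.63, and *Nfil3*, a transcription factor, by 2.90. *Lag3* and *Tigit* are also known in regulatory T cells, whose 8 markers were all called higher with a median log2 fold change of 3.61, and the part of such cells in these differences was not tested. *Havcr2*, which encodes TIM-3, had 5.66 and 3.94 CPM in CD4+Lrig1- and 1.08 and 1.46 CPM in CD4+Lrig1+ T cells. *Prdm1*, which encodes Blimp-1, had a log2 fold change of 0.06 and did not pass. Without the table as a term, edgeR's quasi-likelihood test called no gene of these 8 lists.

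**Figure D5:**
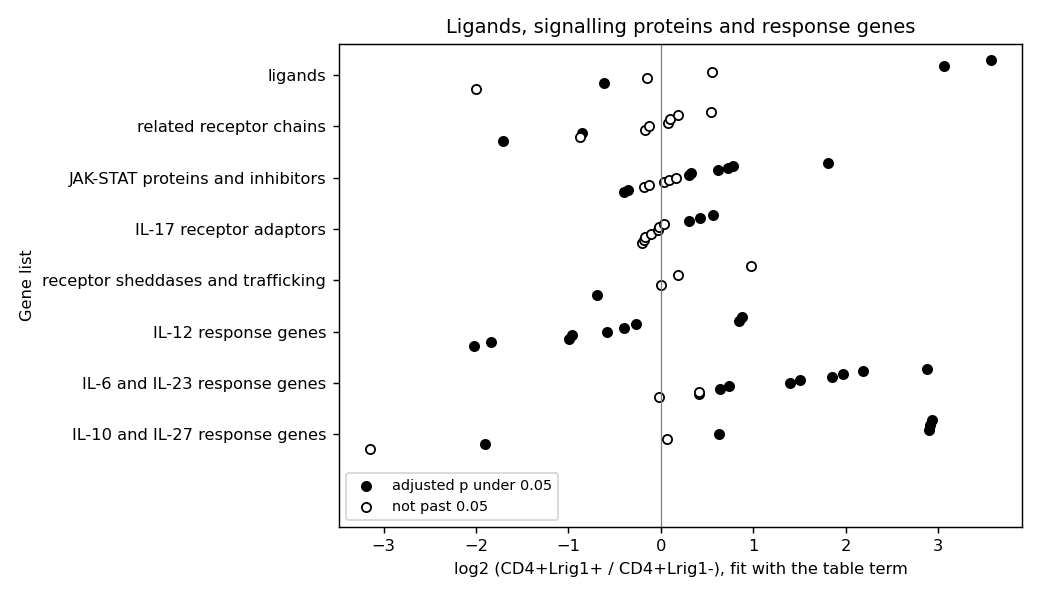
log2 fold change of CD4+Lrig1+ over CD4+Lrig1-, fitted with the table as a term, for each tested gene of the 8 lists, with filled points for an adjusted p under 0.05. The medians are -0.59 for the IL-12 response genes, 1.39 for the IL-6 and IL-23 response genes and 0.63 for the IL-10 and IL-27 response genes.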

How the data were processed

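RNA from T cells of the spleen, sorted as CD4+Lrig1+ or as CD4+Lrig1-, was sequenced by the authors from stranded mRNA libraries. The submitters' processing notes name Trimmomatic 0.38, HISAT2 2.1.0, Bowtie2 2.3.4.1 and StringTie 2.1.3b, and the builds GRCm38 and mm10. The deposited tables give for 129299 RefSeq transcripts estimated counts, not normalized, made by the authors. The deposited FPKM and TPM values were scaled by the authors for transcript length and library. Of 6 labelled samples (3 per group), 4 libraries, those whose columns name the group, were used. Another 6 columns, in a table whose column names leave the Lrig1 group unstated, were left out.

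Counts, which are whole numbers as deposited, were summed per gene, filtered with filterByExpr, scaled by TMM and tested with the quasi-likelihood test of edgeR 4.0.16 (R 4.3.3), with the table and the group as terms and Benjamini-Hochberg adjustment over 16123 genes at 0.05. The table term was chosen because levels were compared within each table. Each SE was derived from the test, as the absolute log2 fold change divided by the square root of its F statistic. A prior count of 2 was added for log2 ratios within sets, and folds are ratios of CPM without it. Alternatives were DESeq2 1.42.0, no table term, other filters, limma 3.58.1 on log2 FPKM with a pseudocount of 1 or 0.1, a test of transcripts, leaving out 389 immunoglobulin genes, a threshold of 0.1 and leaving out each library. The procedure was tested on simulated counts. Depth ranged from 44865070 to 59977951 counts. Gene names and coordinates of all 9 receptor genes matched RefSeq on GRCm38.p6, which also gave the promoters.

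The receptor genes and all lists were chosen with earlier results of these data known, and the lists hold genes known as ligands, receptors, signalling proteins, targets or cell type markers. Genes named are the 9 receptors, from the lists of ligands, receptors, signalling proteins and targets, but not of cell type markers, those past the threshold (at most 6 with the smallest p per list and direction) and the most abundant ligand, adaptor and sheddase, *Lrig1*, *Foxp3*, *Il2ra* and *Ctla4*, and the 3 genes nearest in pattern to *Il6ra* and *Il12rb2*. Genes named beside these, such as *Il10*, *Il12a*, *Socs3*, *Prdm1*, *Cd22*, *Cd79b*, *Eomes*, *Ncr1*, *Klre1*, *Klrb1c* and overlapping genes, were chosen after their values were seen.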

Additional observations from a re-analysis of the deposited data

Results flagged for a closer look

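*Il6st* and *Il27ra* are given here because each moved in opposite directions in the 2 sets. The log2 ratio of CD4+Lrig1+ to CD4+Lrig1- was 0.0991 for *Il6st* in set 1 and -0.0882 in set 2. For *Il27ra* it was -0.0796 in set 1 and 0.102 in set 2. With 1 library of each group in a set, the difference between the sets was not tested. No group held 4 or more libraries, so no library was examined as an outlier.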

How the results depend on the processing

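No paired analysis was possible because the columns carry no replicate numbers, other than the pairing of libraries by table that the table term makes, and what a table stands for is not given. Without that term the quasi-likelihood test of edgeR found 0 genes higher or lower (674 and 227 at an unadjusted p under 0.05), 0 of the 9 receptor genes and 0 of the other pathway genes in either direction, where the fit with the term called 2358 genes higher and 2056 lower and 26 and 14 other pathway genes. DESeq2's Wald test without it called 263 genes higher and 50 lower, 0 receptor genes higher and 1 lower, and 9 other pathway genes higher and 0 lower. With no filter on low counts 1304 genes were called higher, 820 lower and 8 other pathway genes lower, and *Il6ra* missed the threshold (adjusted p = 0.0568 in edgeR's quasi-likelihood test). With limma on log2(FPKM + 1), 1911 genes were called higher and 1016 lower. The cause of these changes was not tested. Leaving out 1 library in turn without the table term gave 1 to 88 genes higher and 0 to 2 lower, and 0 to 0 receptor and other pathway genes in either direction, with the lone library assumed to vary like the other group. Over these fits and the ratios in the remaining set, the log2 fold change ranged from -1.59 to 0.28 for *Il6ra*, from -0.57 to 0.57 for *Il6st* and from -0.23 to 0.31 for *Il27ra*, and the sign of *Il6ra* changed when the set 1 library of CD4+Lrig1- or the set 2 library of CD4+Lrig1+ was left out, to 0.28 and 0.08. For *Il12rb2* it ranged from -2.78 to -2.31, and over the other alternatives it came to -1.03 with limma on log2(FPKM + 1) and -2.43 with limma on log2(FPKM + 0.1). *Il6st* came to -0.0158 with DESeq2's size factors and -0.0157 with its Wald test. *Il27ra* came to -0.0105 in both, to -0.0014 without the table term and to -0.0285 in the Wald test without it. The test of transcripts called none, with 0.881 as the smallest adjusted p of edgeR's quasi-likelihood test. Depth was lowest for *Il23r*, with 7 to 13 counts per library.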
